A study of Oryza sativa with 2 samples.

Results

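Transcript signals of 4 rice genes for diterpenoid phytoalexin synthesis, KSL5, KSL7, CYP99A2 and CYP76M6, were compared between a yellow leaf tip sample and a green sample, called the yellow and the green sample below. The genes were found by symbol or synonym, with a leading Os dropped, among the 17905 genes that had at least 1 single-gene probe set, and they were read by 6 of 57258 rice probe sets. The yellow leaf tip sample came from mutant recombinant inbred lines labelled F9Y, and the green sample from normal green lines labelled F9G, both in the vegetative stage and both descended from parent lines of a study of SA0420, an early-senescing rice mutant. Recombinant inbred lines are fixed by repeated inbreeding after a cross, so lines of either label can also differ at loci unrelated to leaf colour. How many plants or lines were combined in each RNA was not stated in the labels, and the titles of both samples name leaves while their descriptions name leaf tips, so which part of the leaf was taken is not settled for either. Each group had 1 single-colour array, so no difference below has a replicate check or a p-value, and all of them compare these arrays.

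Rice makes its diterpenoid phytoalexins, the momilactones, phytocassanes and oryzalexins, mainly after fungal attack or elicitor treatment, and momilactones are also released from roots. A copalyl diphosphate synthase (CPS) first folds geranylgeranyl diphosphate into a bicyclic product in either the ent or the syn form, and a kaurene synthase-like enzyme (KSL) then closes the hydrocarbon skeleton. Cytochromes P450 of the CYP99, CYP76M, CYP71Z and CYP701A families oxidise that skeleton. Many of these genes lie in a cluster on chromosome 2, which serves mostly the ent route to phytocassanes and oryzalexins, and in a cluster on chromosome 4, which serves the syn route to momilactones. KSL5, KSL7 and CYP76M6 belong to the cluster on chromosome 2 and CYP99A2 to the cluster on chromosome 4.

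The genes did not differ in the same direction. KSL5 and CYP99A2 had lower signals in the yellow sample, CYP76M6 had a higher signal on 1 of its 2 probe sets, and KSL7 had slightly higher signals on both of its probe sets. The cyclase genes KSL5 and KSL7, which stand in the same cluster, therefore had differences of opposite sign.

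KSL5 encodes the cyclase that makes an ent-pimaradiene from ent-copalyl diphosphate. Its probe set had a signal of 47.4 in the yellow sample and 251 in the green sample. The yellow leaf tip value lay inside the range of 42 Bacillus subtilis control probe sets, whose signals ran up to 56.9 on that array, and 3 of these controls were brighter. The green value was above the highest control of the green array, 97.6. After a pseudocount of 22.6 and centring on the median of all kept probe sets, the log2 difference (yellow leaf tip over green) was -1.91, or 3.77-fold lower. Because the yellow leaf tip value may be background, the difference is better read as a bound: with values raised to the highest bacterial control of each array, the signal of KSL5 was at least 4.20-fold lower in the yellow sample. This bound and the like ones below allow for background only, not for scatter between probes, plants or arrays. The gene table gives the name KSL5 to this gene only, but it lists the other names KS5 and KS6 for both this gene and its neighbour KSL6, a close relative. No probe set is listed for KSL6, so whether the value belongs in part to KSL6 was not tested.

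KSL7 encodes the ent-cassadiene synthase that commits ent-copalyl diphosphate to the phytocassanes. Its brighter probe set had a signal of 754 in the yellow sample and 634 in the green sample, a log2 difference of 0.29. Its dimmer probe set had 134 in the yellow sample and 67.2 in the green sample, a log2 difference of 0.85, and 7 of the 42 bacterial controls were brighter than this green value. With the bacterial control as floor, the dimmer probe set was at least 1.44-fold higher in the yellow sample. Neither measured difference reached 2-fold, and the mean of their differences was 0.57. Probe sets of the same gene scattered with an SD of 0.41 at the signal level of the brighter one, so its difference was smaller than that scatter, which covers probes and not plants, RNA extractions or arrays.

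CYP99A2 encodes a P450 paired in the momilactone cluster with CYP99A3, which oxidises the syn-pimaradiene skeleton. Its probe set had a signal of 47.4 in the yellow sample, where 3 of the 42 bacterial controls were brighter, and 302 in the green sample, above all of them. The log2 difference was -2.16, or 4.48-fold lower on the scale with the pseudocount. With the bacterial control as floor, the signal was at least 5.06-fold lower in the yellow sample. KSL5 and CYP99A2 were thus alike in both samples, near background in the yellow sample and clearly above it in the green sample. Since both differences are bounds, their order is not resolved.

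CYP76M6 encodes a P450 that hydroxylates an ent-sandaracopimaradiene product on the way to oryzalexins. Its brighter probe set had a signal of 227 in the yellow sample and 36.3 in the green sample, where 15 of the 42 bacterial controls were brighter. The log2 difference was 2.13, a fold of 4.38, and at least 2.44-fold higher with the bacterial control as floor. The other probe set had 18.8 in the yellow sample and 14.6 in the green sample, below the signal filter, and 19 and 24 of the 42 bacterial controls were brighter there. The probe sets of CYP76M6 therefore disagreed: one was bright in the yellow sample only, and the other stayed at background on both arrays. Averaged over both, as happens without the filter, the log2 difference was 1.20.

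**Figure D1:**
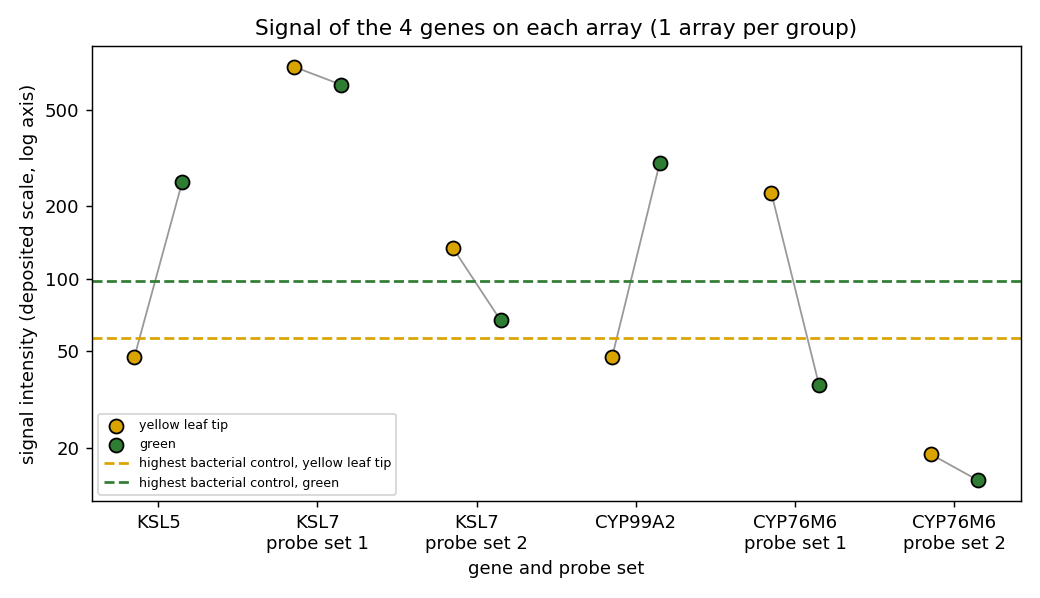
Signal intensity (deposited linear scale, drawn on a log axis) of the 6 probe sets of the 4 genes, with the yellow leaf tip array left of the green array and 1 point per array. Dashed lines mark the highest Bacillus subtilis control of each array (56.9 in the yellow sample, 97.6 in the green sample). KSL5 and CYP99A2 fall below their line in the yellow sample, and CYP76M6 and the second probe set of KSL7 fall below theirs in the green sample. The second probe set of CYP76M6 falls below the line of each array.

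The filter kept probe sets whose mean over both arrays was at least 86.0, which left 28629 probe sets and 14697 genes. Of the 6 probe sets of the 4 genes, 5 passed. KSL5, CYP99A2, the brighter probe set of CYP76M6 and the dimmer one of KSL7 passed through 1 array only, since their other value was under 86.0. A probe set this dim on 1 array can only pass by being brighter on the other, so that these differ is in part fixed by the filter. At a log2 difference of at least 1 in size, 2 of the 4 genes had lower signals in the yellow sample and 1 had a higher one, against 3.18% of all kept genes lower and 5.57% higher.

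Large differences were more frequent among dim probe sets. KSL5 and CYP99A2 fell in the second-dimmest of 5 equal bins of the kept probe sets (mean signals of 144 to 294), where 7.56% of probe sets were lower and 6.99% higher by at least 2-fold. CYP76M6 fell in the dimmest bin (86.0 to 144), where 7.6% were higher and 15.9% lower.

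**Figure D2:**
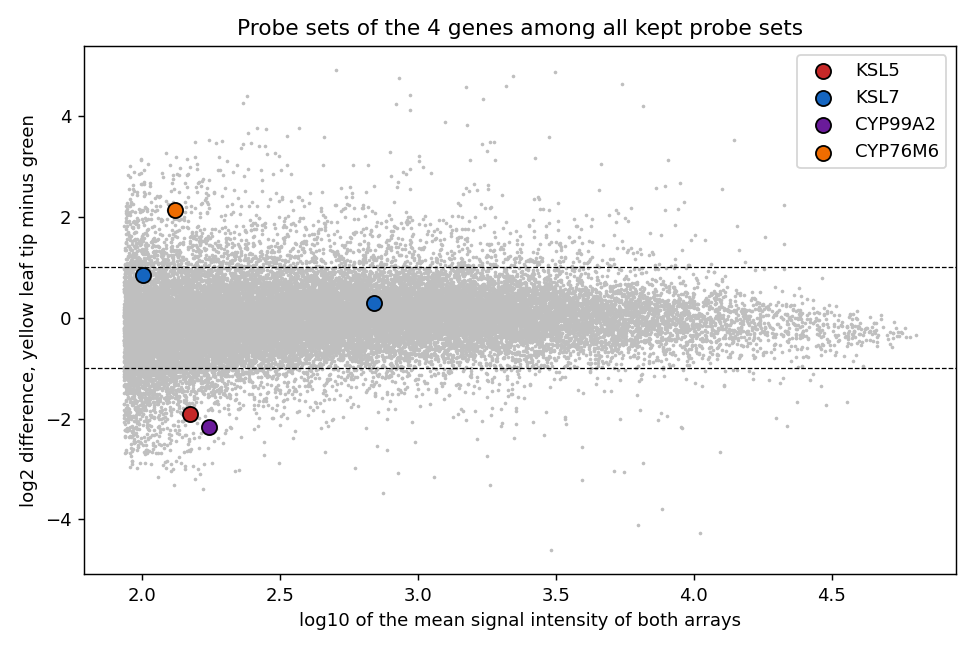
Log2 difference, yellow leaf tip minus green, against log10 of the mean signal intensity of both arrays, for 28629 kept probe sets (grey) and the 5 kept probe sets of the 4 genes (coloured); dashed lines mark 2-fold. KSL5 (-1.91), CYP99A2 (-2.16) and CYP76M6 (2.13) lie outside the lines at the dim end, and both points of KSL7 (0.29 and 0.85) lie inside.

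The wider list of diterpenoid phytoalexin genes held 20 genes in the gene table, 17 of them with a probe set and 10 past the filter. Besides the 4 genes above, 6 were measured, and all 6 had a difference below 0, but none of the 6 reached 2-fold. Among them, CPS2 (-0.17) and CYP701A8 (-0.39) stayed within the scatter between probe sets of a gene at their signal level (SD 0.41). So did CYP71Z7 (-0.03, SD 0.56). The median of the 10 was -0.57, and it was also -0.57 without the 4 genes, against 0.08 over all kept genes, of which 43.4% were below 0. Of the 10, those past 2-fold were 2 lower genes and 1 higher gene, against 3.18% of all kept genes lower and 5.57% higher. These 3 are KSL5, CYP99A2 and CYP76M6, which passed the filter only through the array where they were brighter.

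At the cyclase step, CPS2, which supplies ent-copalyl diphosphate to both KSL5 and KSL7, had 873 in the yellow sample and 1021 in the green sample, a log2 difference of -0.17. KSL5 and KSL7, which both use that product, had -1.91 and 0.57, on either side of it. The brighter probe set of KSL7 alone had 0.29, within the probe set scatter at its signal level (SD 0.41). The gap between KSL7 and CPS2 was not tested. CPS4, which makes syn-copalyl diphosphate for momilactones, had 9.58 in the yellow sample and 5.91 in the green sample, both inside the range of the bacterial controls. KSL4, the momilactone cyclase, had 19.5 in the yellow sample and 23.1 in the green sample. KSL10, the cyclase of the oryzalexins, had 4.68 in the yellow sample and 5.12 in the green sample. The signals of CPS4, KSL4 and KSL10 lay inside the range of the bacterial controls on both arrays, so nothing can be said of how they differ.

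Among the P450 genes, CYP99A3 came closest to its relative CYP99A2, with 261 in the yellow sample and 563 in the green sample. Its log2 difference of -0.999 fell just short of 2-fold, and it was past 2-fold under 7 of 10 other settings. CYP76M8, which hydroxylates cassadiene and sandaracopimaradiene products, had 92.8 in the yellow sample and 191 in the green sample (-0.84), on a probe set whose name marks possible cross-hybridization. CYP71Z6, which hydroxylates an ent-isokaurene product, had 1132 in the yellow sample and 1982 in the green sample (-0.75). CYP71Z7, which acts in phytocassane synthesis, had 228 in the yellow sample and 242 in the green sample (-0.03), with a sign that changed between settings (-0.08 to 0.01). CYP701A8, which hydroxylates ent-diterpenes of the phytoalexin route, had 801 in the yellow sample and 1097 in the green sample (-0.39). Its relative CYP701A9 was below the filter, with 23.6 in the yellow sample, inside the range of the bacterial controls, and 121 in the green sample, above it. CYP76M6 was the only one of the 7 kept P450 genes of this list with a difference above 0, apart from the settings that moved CYP71Z7 above 0. CYP76M5 (31.9 in the yellow sample and 43.4 in the green sample) was at background on both arrays. So was the gene listed as CYP76M7 (31.3 in the yellow sample and 9.89 in the green sample). The gene table places that gene on chromosome 6, outside both clusters, and whether it is the CYP76M7 of this pathway was not tested. MAS, the dehydrogenase of the last step to momilactone A, was below the filter with 73.1 in the yellow sample and 67.5 in the green sample.

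The order of genes in the RefSeq gene table shows how mixed the chromosome 2 cluster was. From CYP76M8 onward the kept genes had differences of -0.84 for CYP76M8, -1.09 for the unnamed LOC4329723, 0.57 for KSL7, -0.75 for CYP71Z6, -0.03 for CYP71Z7, -0.17 for CPS2, -1.91 for KSL5 and 2.13 for CYP76M6. KSL5 and CYP76M6, the lowest and the highest gene of this run, are separated in the table only by KSL6, which had no probe set, and 1 noncoding RNA gene. Beyond CYP76M6, the unnamed LOC4329732 had 145 in the yellow sample and 59.2 in the green sample (1.09), and its green value was inside the range of the bacterial controls. LOC4329723 had 148 in the yellow sample and 353 in the green sample. It was not counted in the diterpenoid list, and whether it is a pathway gene under another name was not tested. In the chromosome 4 cluster, CYP99A2 and CYP99A3 were the only listed pathway genes past the filter, and both were lower in the yellow sample. The unnamed LOC4335098, 3 places beyond CYP99A2, went the other way with 7390 in the yellow sample and 5425 in the green sample (0.49), and the name of its probe set marks possible cross-hybridization. Of 22 genes within 4 places of a member on either side, members left out, 9 had a probe set and 7 passed the filter. Of these 7, 1 was higher and 1 lower by at least 2-fold, against 5.57% and 3.18% of all kept genes.

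**Figure D3:**
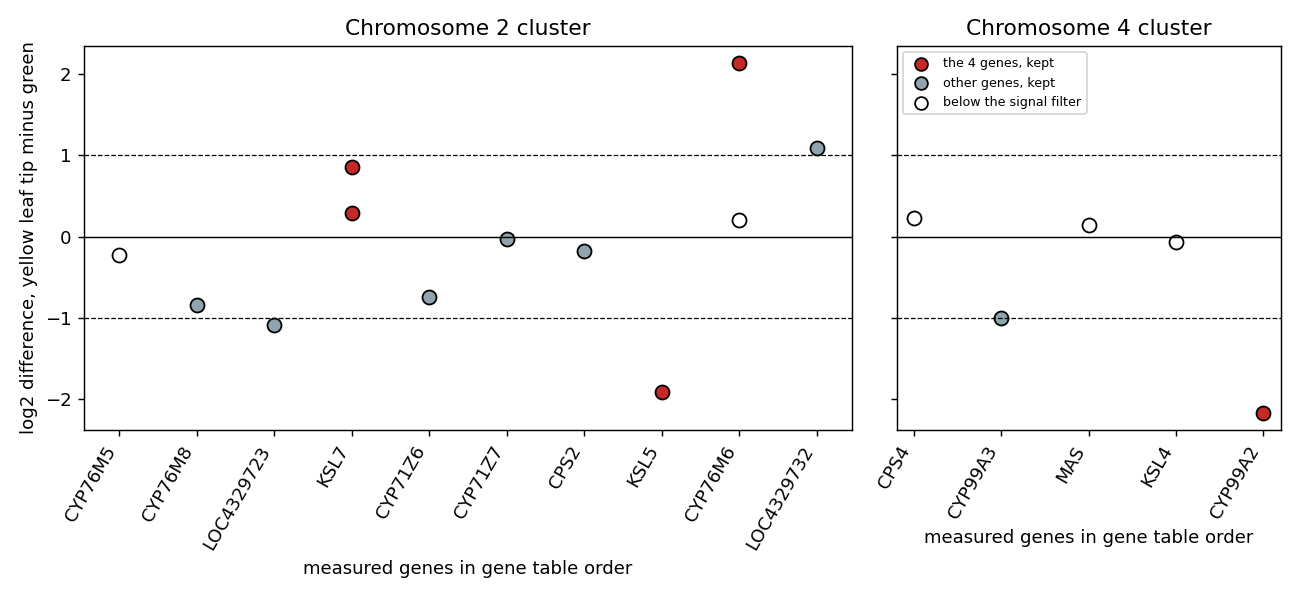
Log2 difference, yellow leaf tip minus green, of each probe set of the genes in the clusters on chromosome 2 (left panel) and chromosome 4 (right panel), in gene table order and not to genomic scale; filled points passed the signal filter, open points did not, and dashed lines mark 2-fold. KSL5 (-1.91) and CYP76M6 (2.13) stand side by side at opposite ends of the scale, and CYP99A2 (-2.16) is the lowest point.

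The precursors of these genes' substrates come from the plastid methylerythritol phosphate pathway. None of its 5 measured genes reached 2-fold, and the median was 0.19. ISPG, which acts late in the pathway, was the highest with 8966 in the yellow sample and 5602 in the green sample (0.73), and DXR, which makes methylerythritol phosphate, was the lowest with 3940 in the yellow sample and 4986 in the green sample (-0.29).

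Gibberellin synthesis draws on the same geranylgeranyl diphosphate through its own enzymes. Of 7 measured genes of gibberellin metabolism, 1 was lower by at least 2-fold and none higher, with a median of -0.01. Over all kept genes, 3.18% were lower and 5.57% higher. The lower one was CPS1, the gibberellin counterpart of CPS2, with 211 in the yellow sample and 491 in the green sample (-1.09). GA20OX3, a gibberellin oxidase, was the highest with 431 in the yellow sample and 288 in the green sample (0.60). CPS1 and CPS2, which make the same ent product, were 0.91 apart in log2 difference, and that gap was not tested.

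The regulator list held 8 measured genes, named as regulators of the phytoalexin pathway or as parts of chitin perception upstream of it. Of these, 2 were lower by at least 2-fold and none higher, with a median of -0.27. Over all kept genes, 3.18% were lower and 5.57% higher by at least 2-fold. CEBIP, the chitin-binding receptor, was the lowest with 123 in the yellow sample and 343 in the green sample (-1.27). WRKY62 had 54.8 in the yellow sample, inside the range of the bacterial controls, and 157 in the green sample (-1.17). It passed the filter only through the green sample and fell in the dimmest bin, where 15.9% of probe sets were lower. One of the 2 genes listed as CERK1, the partner receptor of CEBIP, was the highest, with 1006 in the yellow sample and 938 in the green sample (0.15). The gene listed as bZIP79 was below the filter, with 10.2 in the yellow sample and 66.0 in the green sample, both inside the range of the bacterial controls. TGAP1, another factor searched for by name, matched no gene, so its signal is not known here. Across 13 other genes with a P450 symbol, some of them gibberellin genes counted above, 2 were lower and 1 higher by at least 2-fold, with a median of -0.11. The same shares of 3.18% lower and 5.57% higher over all kept genes apply here. The highest of these 13 was CYP71P1 with 730 in the yellow sample and 288 in the green sample (1.33). The lowest was CYP734A4, with 53.6 in the yellow sample, inside the range of the bacterial controls, and 303 in the green sample (-2.05), values like those of KSL5 and CYP99A2.

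**Figure D4:**
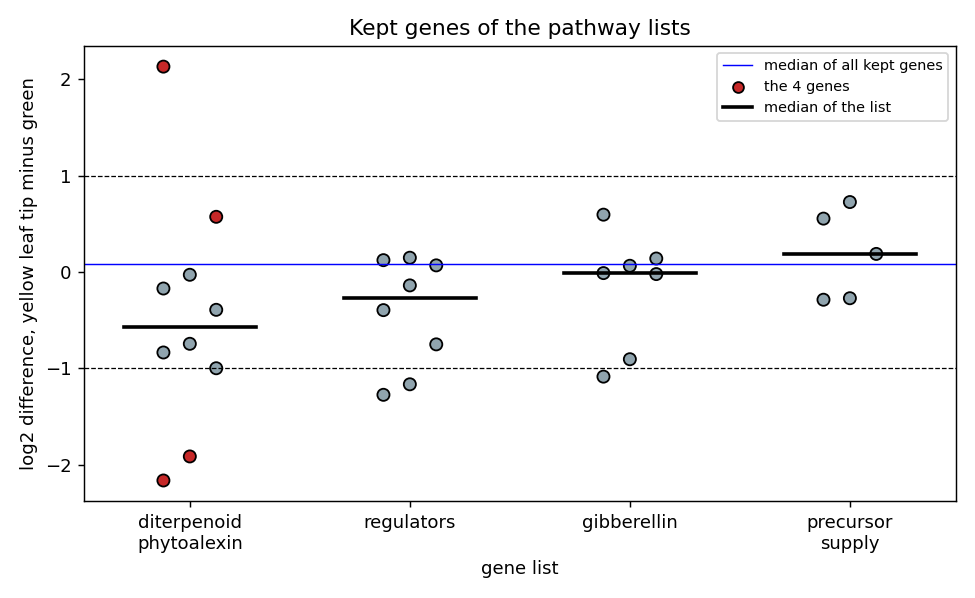
Log2 difference, yellow leaf tip minus green, of each kept gene in the lists of diterpenoid phytoalexin genes, regulators, gibberellin genes and precursor supply; red points are the 4 genes, black bars the list medians (-0.57, -0.27, -0.01 and 0.19), the blue line the median of all kept genes (0.08), and dashed lines mark 2-fold. The phytoalexin list has the widest range, with its 3 points beyond 2-fold all among the 4 genes. These 3 passed the filter only through the array where they were brighter, so this range is in part fixed by the filter and by the choice of genes.

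The directions of all 4 genes were the same under every setting that could measure them. KSL5 ran from -2.35 to -1.28, CYP99A2 from -2.62 to -1.48 and CYP76M6 from 1.20 to 2.70 over 10 other settings each, and KSL7 from 0.22 to 0.71 over 11. With the filter at the 75th percentile of mean signal, 444, only KSL7 of the 4 remained.

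**Figure D5:**
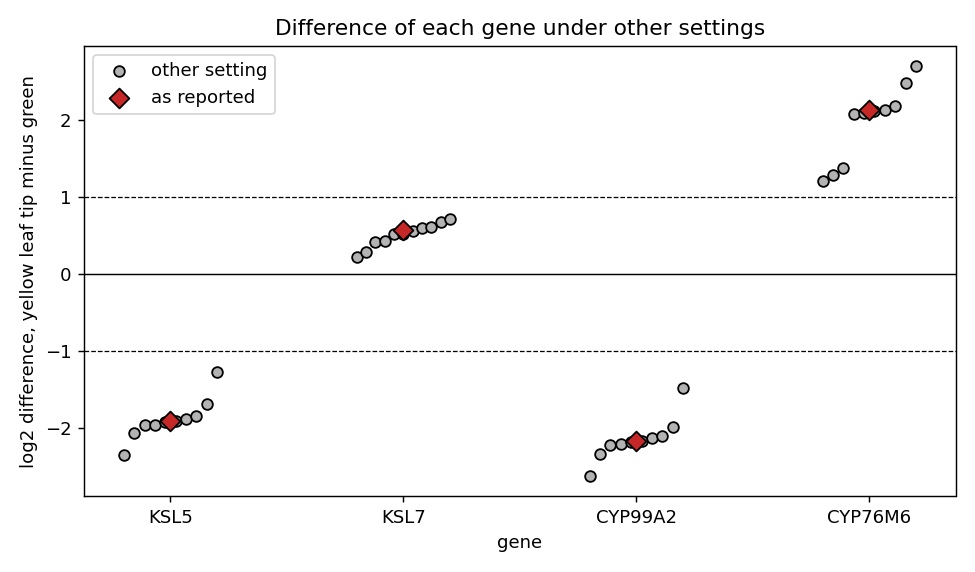
Log2 difference, yellow leaf tip minus green, of each of the 4 genes as reported (red diamonds) and under other settings (grey points, spread sideways for legibility); dashed lines mark 2-fold. KSL5 and CYP99A2 stay below -1, CYP76M6 stays above 1 and KSL7 stays between 0 and 1.

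Over all kept probe sets, 1665 (5.82%) had a signal at least 2-fold higher in the yellow sample and 1800 (6.29%) one at least 2-fold lower. Higher ones made up 48.1% of these, and 59.4% after a loess on signal. Of the 6 leaf marker genes, 5 had a probe set and passed the filter, with a summed signal of 109358 in the yellow sample and 147587 in the green sample. The probe sets of CAB2R, a light-harvesting protein gene, had 49129 and 38721 in the yellow sample and 58534 and 48042 in the green sample. Single probe sets of 2 other leaf markers were dim: one of RBCS had 70.1 in the yellow sample and 187 in the green sample, and one of PSAG had 228 in the yellow sample and 94.1 in the green sample, the opposite direction. Because momilactone genes are also active in roots, markers of other organs were read too. Of these, 2 of 4 root marker genes, 3 of 5 seed genes and 1 of 2 anther genes passed the filter. All 6 had differences below 0, as did 43.4% of all kept genes. The seed gene GLUB4 and the anther gene C6 passed only through the green sample, so their sign was fixed by the filter. Their summed signal in the yellow sample was 1025 for root, 934 for seed and 59.0 for anther genes, against 1587, 1517 and 128 in the green sample. The seed glutelin gene GLUB4 had 22.3 in the yellow sample, inside the range of the bacterial controls, and 186 in the green sample (-2.17), a difference like that of CYP99A2. Among the markers below the filter, LSI2 (root), GLUA1 and RAG1 (seed) and RTS (anther) lay inside the range of the bacterial controls on both arrays. The other root marker below the filter did so in the yellow sample only. The part of these tissues in the differences of KSL5 and CYP99A2 was not tested. Fewer cells that express a gene and less RNA per cell cannot be told apart in bulk RNA of leaf tissue.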

How the data were processed

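RNA of 2 leaf samples was read on single-colour oligonucleotide arrays. Per the labels' protocols, total RNA was prepared with an RNeasy kit and about 10 µg was turned into biotinylated cRNA. The values the authors deposited are linear signal intensity per probe set. Software and scaling: not given in the sources used here. Each array had a mean of 500.0 once 2% of its values were trimmed at either end. Control probe sets (123) entered no comparison, and 42 of them, named for Bacillus subtilis genes, served as the range of background, a choice made after seeing the data.

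The steps were log2 of value plus a pseudocount (the 25th percentile of all values), centring on the median over kept probe sets (a shift of -0.05) and a filter at the median of the mean signals. Genes with several kept probe sets were given their mean. Folds on this scale understate differences of dim genes. Probe sets were paired with genes through the platform annotation (22436 with 1 gene, 95 with several, 34727 with none listed), and all 17905 single genes matched RefSeq's gene table (assembly ASM3414082v1), used for names, chromosome and gene order only. No test was possible on 1 array per group, and this number of arrays limits the precision.

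The members and lists were chosen with earlier results of these data known. Named were the 4 genes with all their probe sets, all measured genes of the diterpenoid list, the highest and lowest gene of the other lists, table neighbours, and the 2 named genes nearest to each kept probe set in log2 signal; MPK, WRKY76 and other list members enter the counts only. LOC4329723, LOC4329732 and LOC4335098 are named as neighbours. WRKY62, bZIP79, CYP71P1, CAB2R, RBCS, PSAG, GLUB4, C6, LSI2, GLUA1, RAG1 and RTS were named after their values were seen. A sulfurase gene listed as MCS and a growth factor gene listed as PT2 were taken out of the lists after a first look. The calculation was tested on simulated data. Python 3.11.15, pandas 2.3.3, numpy 2.4.6 and statsmodels 0.14.6 were used.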

Additional observations from a re-analysis of the deposited data

How the results depend on the processing

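No paired analysis was possible because each group has 1 array. The alternatives were no centring, quantile normalization, loess, the pseudocount dropped or set at the 50th percentile, the filter dropped or set at the 75th percentile, no probe sets that may cross-hybridize, none whose names begin with OsAffx, the brightest probe set per gene, a size threshold of 2 on the log2 scale and, chosen after seeing the data, a floor at the highest bacterial control. None of them turned the direction of the 4 genes. With the pseudocount at the 50th percentile, CYP76M6 had 1.38, CYP99A2 -1.48 and KSL5 -1.28, as its construction shrinks dim values, and 1100 probe sets were higher and 863 lower. CYP76M6 had 1.20 without a filter, where its second probe set entered, and 1.29 with the floor. Without a filter 5333 probe sets were higher and 5478 lower. With the filter at the 75th percentile 582 were higher and 433 lower, and 0 of the 4 measured diterpenoid genes were higher or lower by 2-fold. Without OsAffx probe sets 1047 were lower, and the cause was not tested. At the threshold of 2, 312 probe sets were higher and 261 lower, and 1 diterpenoid gene was lower. The median of the diterpenoid list ran from -0.62 to -0.14, the last without a filter, where 17 genes counted. The dim signals of KSL5, CYP99A2 and CYP76M6 on 1 array each limit their size, and 1 array per group limits every value.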

Other observations

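The array carries 10 control probe sets with the prefix Mgr, named for the rice blast fungus Magnaporthe grisea, against which rice makes diterpenoid phytoalexins. Their signals ran from 8.14 to 81.6 in the yellow sample and from 9.85 to 186 in the green sample. On the yellow leaf tip array 2 of them, an elongation factor and a GAPDH probe set, were above the highest bacterial control. On the green array 1 was, the same GAPDH probe set, with 75.9 in the yellow sample and 186 in the green sample. The other GAPDH probe sets had 8.14 and 34.1 in the yellow sample and 9.85 and 15.1 in the green sample. These and the other elongation factor probe sets lay inside the range of the bacterial controls on both arrays. Whether any of them read fungal RNA was not tested.

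The named genes closest to the 4 genes in log2 signal on both arrays, out of 2517 probe sets of named genes, were found by distance over these 2 arrays, which is a weak measure of likeness. Nearest to CYP99A2 were the aquaporin gene PIP2;5 (49.5 in the yellow sample and 322 in the green sample, distance 0.10) and CYP734A4, a P450 that inactivates brassinosteroids (53.6 in the yellow sample and 303 in the green sample, distance 0.12). CYP734A4 was also among the 2 nearest to KSL5 (distance 0.28), after PTC1 (59.8 in the yellow sample and 230 in the green sample, distance 0.26). Nearest to CYP76M6 were CCD8A, a strigolactone synthesis gene (219 in the yellow sample and 29.6 in the green sample, distance 0.18), and the gene listed as CHS, the name of chalcone synthase (202 in the yellow sample and 42.1 in the green sample, distance 0.20). For KSL7 they were C3H19 (distance 0.05) and STLP5 (0.05) for the brighter probe set, and KIN8B (0.04) and IAA18 (0.08) for the dimmer one.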
